A study of Mus musculus with 6 samples.

Results

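The transcripts of 9 complement genes outside the C1q complex, C2, C3, C4b, C1ra, Cfb, Cfd, Serping1, Masp1 and C3ar1, were followed in wild-type and Plekhg5-deficient sciatic nerve. The genes were taken by symbol from the deposited tables, which list 39174 genes, and 9 of 9 were found. Whole nerves of 3 wild-type animals, numbered 2, 4 and 5, and of 3 Plekhg5-/- animals, numbered 2, 3 and 5, were sequenced after poly(A) selection, with no treatment named for either group. The text of the study gives the age as 12 months, the sample records call the animals adult, and neither names a promoter, a Cre line or the form of the disrupted allele. Levels are FPKM, fragments per kilobase of transcript and per unit of library size, divided by 1 scaling factor per library, so that genes can be compared per length. That each library is a separate animal rests on the text of the study, and the p-values measure the spread between these 6 libraries.

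Complement is a cascade of secreted proteases that tags debris and pathogens. The classical pathway starts with C1q and its proteases C1r and C1s, which cut C4 and C2 into the enzyme that splits C3, and the lectin pathway reaches the same enzyme through the MASP proteases. Factor B, coded by Cfb, and factor D, coded by Cfd, form the alternative pathway, which amplifies C3 cleavage, Serping1 codes for the C1 inhibitor, and C3ar1 for the receptor of the C3a fragment. In peripheral nerve, deposited C3 fragments mark myelin for uptake by macrophages after injury.

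Plekhg5 itself was measured at 3.65 to 5.26 scaled FPKM in the wild-type libraries and at 0.0521 to 0.141 in the Plekhg5-deficient libraries, which matched the labels. The tables hold no counts, and the sources used here do not give the depth of the libraries. Libraries differed in their transcripts of blood and immune cells. Wild-type nerve 5 had 118 summed scaled FPKM of 8 T-cell transcripts against 2.14 to 7.23 in the other libraries. It also had 121 of 6 B-cell transcripts against 2.39 to 6.77, and 345 of 6 lymph node stroma transcripts against 28.2 to 198. Plekhg5-deficient nerve 5 had 16.0% of its FPKM in haemoglobin against 0.507% to 2.56%. Schwann cell myelin transcripts were abundant in all 6, with 10614 to 19302 summed scaled FPKM of 8 genes.

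None of the 9 complement genes passed the test between genotypes. No member had an adjusted p below the threshold, and at an unadjusted p under 0.05 there were 0 lower and 0 higher in limma, a moderated linear model on log2(scaled FPKM + 1) with p-values adjusted by Benjamini-Hochberg over 21285 genes. Over all genes tested, 0.0376% were called at an adjusted p under 0.05. At the unadjusted threshold 2.69% of all genes were lower and 2.41% were higher. The adjusted p of the 9 genes lay between 0.974 and 0.999. Their median log2 fold change was -0.10, beside 0.0065 for all genes tested, with 5 genes below 0 and 4 above. C1ra and C2 were below every wild-type library in every Plekhg5-deficient library, and no member was above without overlap, where 5.88% of all genes tested were lower and 5.69% higher without overlap. In whole nerve, fewer cells of a type and less RNA per cell cannot be told apart.

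**Figure D1:**
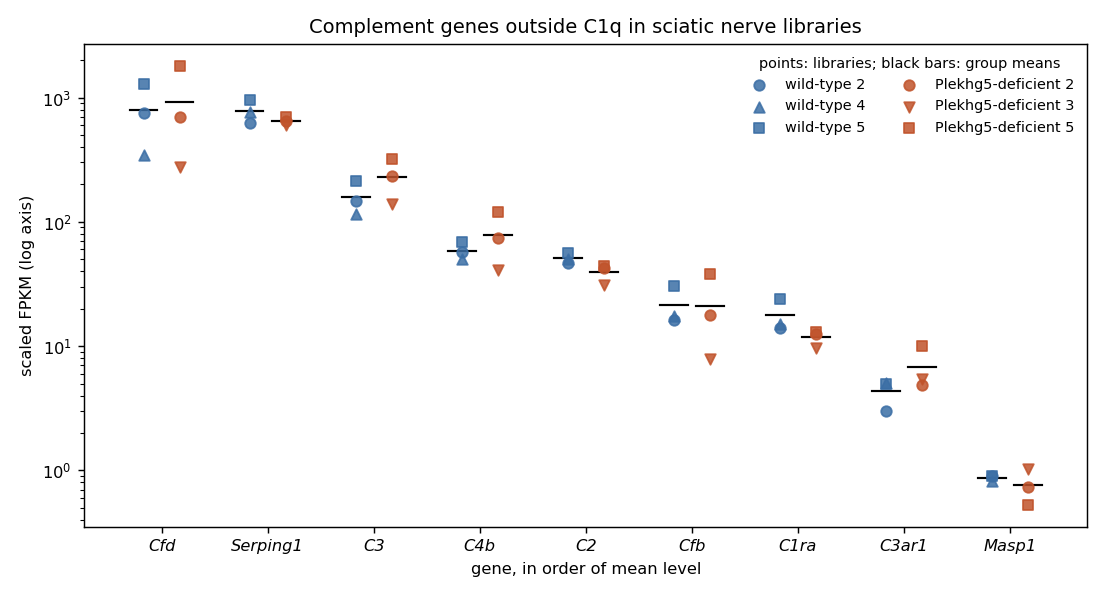
Scaled FPKM of each gene (log axis) in 3 wild-type (blue) and 3 Plekhg5-deficient (orange) sciatic nerve libraries, with the marker shape giving the animal's number and a black bar the group mean. The levels run from under 1 for Masp1 to 1795 for Cfd, and the genotypes stand apart without overlap for C2 and C1ra.

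The plot of levels by library shows the order of the genes, which spanned 3 decades. Mean levels over the 6 libraries fell from Cfd (858 scaled FPKM) and Serping1 (713) through C3 (195), C4b (68.4), C2 (45.1), Cfb (21.3), C1ra (14.7) and C3ar1 (5.57) to Masp1 (0.819). Cfd stood above Serping1 in 4 of 6 libraries and Cfb above C1ra in 5 of 6, so neither neighbouring pair was ordered beyond its spread. For the other neighbours the order was the same in 6 of 6 libraries, but the ranges were separate just for Serping1 over C3 and for C3ar1 over Masp1. The 95% intervals that Cufflinks gave for single libraries were narrowest for Cfd, at most 2.71% of the value to either side, and widest for Masp1, up to 44.7%.

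Promoter sequence was at hand for 4 of 9 members, C3, C1ra, Cfd and C3ar1, in the RefSeq annotation of GRCm38.p6. The 250 bases before each start are shown for these 4, since the other 5 had no window at hand. C3 and C3ar1, a protein and the receptor of its fragment, had the largest positive fold changes of the 9. C1ra had the largest negative one, and Cfd the widest spread. Capitals mark matches, on either strand, to the letters of 4 short motifs of inducible genes. These were a κB-like motif (GGNNNTTCC, in 15.7% of 32851 RefSeq windows of the same length), an ISRE-like motif (GAAANNGAA, in 7.13%), a GAS motif bound by STAT proteins (TTCNNNGAA, in 7.02%) and a C/EBP-like motif (TTGCNNAA, in 9.56%).
C3, chr17:57228137-57228386, minus strand: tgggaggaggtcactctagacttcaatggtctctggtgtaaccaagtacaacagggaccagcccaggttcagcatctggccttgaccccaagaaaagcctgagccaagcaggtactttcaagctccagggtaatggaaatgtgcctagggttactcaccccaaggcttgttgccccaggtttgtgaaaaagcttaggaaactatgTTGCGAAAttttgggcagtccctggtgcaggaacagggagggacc
C3ar1, chr6:122856158-122856407, minus strand: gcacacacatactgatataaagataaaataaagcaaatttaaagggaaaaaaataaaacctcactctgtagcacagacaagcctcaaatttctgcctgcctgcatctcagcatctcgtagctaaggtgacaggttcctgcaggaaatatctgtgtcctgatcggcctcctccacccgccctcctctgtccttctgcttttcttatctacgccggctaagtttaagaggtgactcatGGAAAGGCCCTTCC
C1ra, chr6:124512371-124512620, plus strand: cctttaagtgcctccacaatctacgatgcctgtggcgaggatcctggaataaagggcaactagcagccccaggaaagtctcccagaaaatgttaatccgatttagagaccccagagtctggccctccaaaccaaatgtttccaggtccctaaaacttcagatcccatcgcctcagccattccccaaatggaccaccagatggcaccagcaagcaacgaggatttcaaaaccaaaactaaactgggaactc
Cfd, chr10:79890603-79890852, plus strand: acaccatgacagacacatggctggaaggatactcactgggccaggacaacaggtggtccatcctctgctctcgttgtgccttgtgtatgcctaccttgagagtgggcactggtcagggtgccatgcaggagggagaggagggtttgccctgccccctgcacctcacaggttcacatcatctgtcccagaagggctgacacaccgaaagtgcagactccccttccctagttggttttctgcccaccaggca
The C3 window held 1 match, TTGCGAAA, to the C/EBP-like motif, from 45 to 38 bases before the start. The C3ar1 window held 2 overlapping matches to the κB-like motif directly before the start, 1 on each strand. The windows of C1ra and Cfd held none of the 4 motifs. A match gives letters alone and shows neither binding nor its absence.

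C1ra, a serine protease of the C1 complex that cuts C1s, was measured at 14.0, 15.2 and 23.9 scaled FPKM in wild-type animals 2, 4 and 5, compared with 12.5, 9.72 and 13.1 in Plekhg5-deficient animals 2, 3 and 5. The genotypes did not overlap, but the gap between the lowest wild-type and the highest Plekhg5-deficient nerve was small beside the spread of wild-type nerves, in which nerve 5 was highest. The mean was 1.5-fold higher in wild-type (17.7 ± 5.42, SD, n = 3) than in Plekhg5-deficient animals (11.8 ± 1.8, SD, n = 3), a log2 fold change of -0.52 (SE, the standard error, 0.25, 95% interval -1.11 to 0.07) with an unadjusted p of 0.0746 and an adjusted p of 0.974 (limma). Without wild-type animal 5 it was -0.30 on the scaled values. On FPKM as deposited, without scaling, it was -0.68 with an unadjusted p of 0.0328 (limma). On that scale all genes leaned lower, with a median log2 fold change of -0.094. There 3.54% of all genes were lower at an unadjusted p under 0.05, against 2.69% on scaled FPKM. The gene lies on chromosome 6 of GRCm38 from 124512632 to 124523440, near its copy C1rb, and 42.5% of its 66-base windows, the length of a trimmed read, also occur in C1rb transcripts and 45.1% in any other gene, C1rb and Gm18840. The sum of C1ra and C1rb was 17.1, 19.9 and 30.7 scaled FPKM in wild-type libraries and 16.0, 11.95 and 16.5 in Plekhg5-deficient libraries, again without overlap. The substrate of C1r, C1s, had 54.6, 61.4 and 85.1 scaled FPKM in wild-type libraries and 53.2, 47.1 and 47.1 in Plekhg5-deficient libraries (log2 fold change -0.42, unadjusted p of 0.0864, adjusted p of 0.974, limma). The ratio of C1ra to C1s within a library was nearly level, at 0.256, 0.247 and 0.281 in wild-type libraries and 0.235, 0.206 and 0.278 in Plekhg5-deficient libraries, and overlapped.

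Masp1, a protease of the lectin pathway, was the lowest member, at 0.909, 0.823 and 0.894 scaled FPKM in wild-type animals 2, 4 and 5, compared with 0.738, 1.02 and 0.528 in Plekhg5-deficient animals 2, 3 and 5. Plekhg5-deficient nerves held both the highest and the lowest value, and wild-type nerves lay between them. The log2 fold change was -0.10 (SE 0.15, 95% interval -0.47 to 0.27, unadjusted p of 0.547, adjusted p of 0.98, limma). It was -0.0023 without Plekhg5-deficient nerve 5, -0.20 without nerve 3 and -0.22 with a pseudocount of 0.1. The gene lies on chromosome 16 from 23451785 to 23520590. On scaled FPKM it was the sole one of the 9 genes with its lowest level in Plekhg5-deficient nerve 5 and its highest in nerve 3.

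C4b codes for a C4 protein, the first substrate of the C1s protease, and had 57.4, 49.9 and 68.6 scaled FPKM in wild-type animals 2, 4 and 5, compared with 73.5, 40.9 and 119.9 in Plekhg5-deficient animals 2, 3 and 5. The Plekhg5-deficient values enclosed the wild-type ones, with nerve 5 highest and nerve 3 lowest of all. The log2 fold change was 0.29 (SE 0.38, 95% interval -0.63 to 1.21, unadjusted p of 0.478, adjusted p of 0.98, limma), and it was -0.086 without Plekhg5-deficient nerve 5. C4b lies on chromosome 17 from 34728380 to 34743882. C4b and its copy C4a share 26.3% of the 66-base windows of C4b, and the sum of both genes still overlapped, at 74.0 to 103 scaled FPKM in wild-type and 66.9 to 179 in Plekhg5-deficient nerves.

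C2 forms the enzyme with C4 that splits C3. It was measured at 46.8, 49.8 and 56.2 scaled FPKM in wild-type animals 2, 4 and 5, compared with 42.6, 31.3 and 44.3 in Plekhg5-deficient animals 2, 3 and 5. All 3 Plekhg5-deficient nerves lay below the lowest wild-type nerve, and the spread within a genotype was narrow beside that of C3 or Cfd. The mean was 1.29-fold higher in wild-type (50.9 ± 4.81, SD, n = 3) than in Plekhg5-deficient animals (39.4 ± 7.07, SD, n = 3), a log2 fold change of -0.38 (SE 0.19, 95% interval -0.84 to 0.09) with an unadjusted p of 0.0947 and an adjusted p of 0.974 (limma). On FPKM as deposited it was -0.54 with an unadjusted p of 0.0446, a scale on which the median log2 fold change of all genes was -0.094. The unadjusted calls over all genes there were 753 lower and 239 higher, against 573 and 514 on scaled FPKM. C2 lies on chromosome 17 from 34862604 to 34898265. Leaving out Plekhg5-deficient nerve 3, the lowest, brought C2 to -0.22, over 1.5 times closer to 0.

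C3, the protein on which all pathways meet, had 146, 116 and 211 scaled FPKM in wild-type animals 2, 4 and 5, compared with 235, 139 and 320 in Plekhg5-deficient animals 2, 3 and 5. Plekhg5-deficient nerves 2 and 5 exceeded every wild-type nerve, while nerve 3 lay within the wild-type range. The log2 fold change was 0.51 (SE 0.37, 95% interval -0.37 to 1.4) with an unadjusted p of 0.209 and an adjusted p of 0.974 (limma). Without Plekhg5-deficient animal 5 it was 0.24, and without animal 3 it was 0.83 with an unadjusted p of 0.0485. C3 lies on chromosome 17 from 57203970 to 57228136. The ratio of C3 to C4b within a library ran from 2.32 to 3.41 and overlapped, and the 4 highest libraries came in the same order for both genes. The ratio of C2 to C4b did not overlap, at 0.816, 0.998 and 0.820 in wild-type libraries and 0.579, 0.765 and 0.369 in Plekhg5-deficient libraries. Here 3 against 3 libraries allow no two-sided exact permutation p below 0.1, the value found. Of the members, C2 and C1ra had a lower ratio to C4b without overlap, as did 5.53% of all genes tested. The pair of C2 and C4b was chosen after the values had been seen. Both C2 and C1ra were lower without overlap on their own, and C4b went the other way (log2 fold change 0.29). The ratios to C4b are therefore not a separate result.

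**Figure D2:**
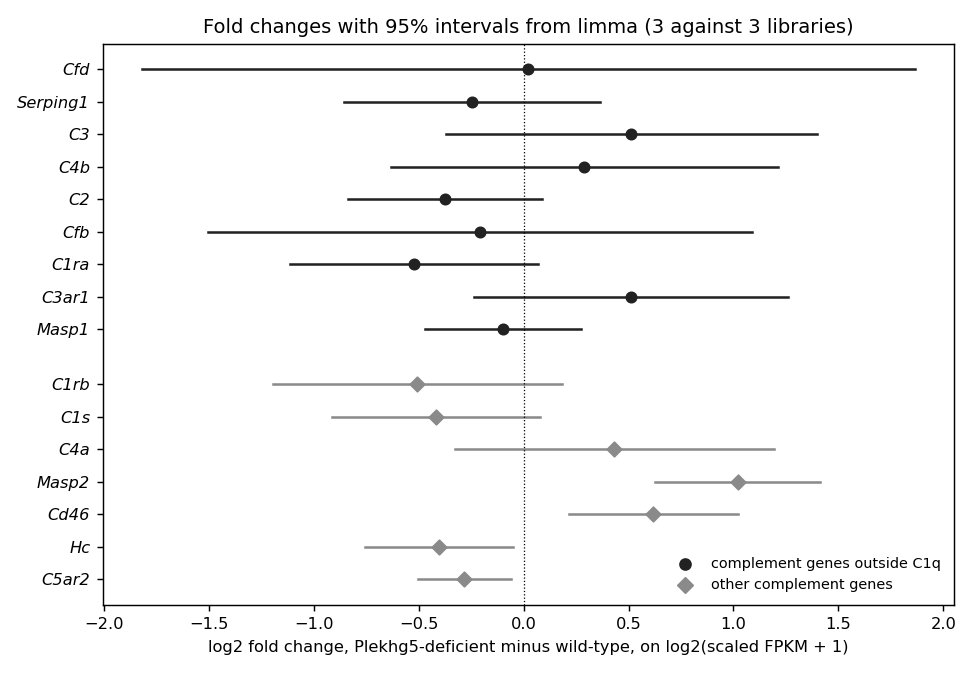
Log2 fold change on log2(scaled FPKM + 1), Plekhg5-deficient minus wild-type, with 95% intervals from limma for the 9 complement genes (black circles) and 7 other complement genes (grey diamonds). All 9 intervals in black include 0, and those of Cfd and Cfb are the widest.

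In the plot of fold changes, Cfd and Cfb of the alternative pathway had the widest intervals of the genes shown. The membrane regulator Susd4 and the receptor Itgb2, not shown there, had a larger SE (0.73 and 0.68) than Cfb (0.54). Cfb, the protease-bearing component of the alternative pathway, had 16.3, 17.4 and 30.2 scaled FPKM in wild-type animals 2, 4 and 5, compared with 17.8, 7.84 and 38.0 in Plekhg5-deficient animals 2, 3 and 5. Both nerves numbered 5 were the highest of their genotype, and Plekhg5-deficient nerve 3 was 4.85-fold below Plekhg5-deficient nerve 5. The group means were 21.3 ± 7.73 and 21.2 ± 15.4 (SD, n = 3 each), with a log2 fold change of -0.21 (95% interval -1.51 to 1.09, unadjusted p of 0.713, adjusted p of 0.990, limma) that turned to 0.33 without Plekhg5-deficient nerve 3 and to 0.05 without wild-type nerve 5. Cfb lies on chromosome 17 from 34856374 to 34862518, ends 85 bases from C2, and 71.0% of its 66-base windows and 37.6% of those of C2 also occur in the read-through transcript Gm20547, which was listed at no more than 0.243 FPKM. The ratio of C2 to Cfb still ran from 1.17 to 3.99 across libraries.

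Cfd, the protease that activates factor B and a product of fat cells, varied most, with 746, 345 and 1287 scaled FPKM in wild-type animals 2, 4 and 5, compared with 702, 275 and 1795 in Plekhg5-deficient animals 2, 3 and 5. The highest level was 6.53-fold above the lowest, and both extremes were Plekhg5-deficient. The log2 fold change of 0.02 (SE 0.77, 95% interval -1.82 to 1.87, unadjusted p of 0.978, adjusted p of 0.999, limma) became -0.66 without Plekhg5-deficient nerve 5, -0.48 without wild-type nerve 4, 0.70 without Plekhg5-deficient nerve 3, and -0.15 on FPKM as deposited. The gene, on chromosome 10 from 79890853 to 79892656, thus kept no direction across settings. The summed level of 11 adipocyte markers, which ran from 1968 to 2263 scaled FPKM in wild-type and from 699 to 5161 in Plekhg5-deficient nerves, was also highest in Plekhg5-deficient nerve 5 and lowest in nerve 3. Of these 11 genes, 10 were lowest in nerve 3 and 6 highest in nerve 5, and their defining markers Adipoq and Plin1 were present in every library. Fabp4 alone gave 3600 of the sum in nerve 5. Of the 11, 9 had a log2 fold change below 0 and 2 above, with a median of -0.37. Plin1 was lower in Plekhg5-deficient nerves without overlap, as were 5.88% of all genes tested. It had 26.2 to 35.4 scaled FPKM in wild-type and 6.80 to 25.4 in Plekhg5-deficient nerves. In wild-type nerves 2, 4 and 5 the sum was 2065, 2263 and 1968, highest where Cfd was lowest. The ratio of Cfd to Adipoq, the adipocyte hormone adiponectin, was 2.15, 1.01 and 3.96 in wild-type libraries and 2.84, 2.06 and 3.33 in Plekhg5-deficient libraries. Against Plin1 the ratio was 23.9, 9.75 and 49.1 in wild-type libraries and 27.6, 40.4 and 72.7 in Plekhg5-deficient libraries. Both ratios overlapped, and the part of fat in the level of Cfd was not tested.

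Serping1, the inhibitor of the C1 and MASP proteases, was the steadiest of the abundant members, at 624, 760 and 953 scaled FPKM in wild-type animals 2, 4 and 5, compared with 643, 605 and 693 in Plekhg5-deficient animals 2, 3 and 5. The genotypes overlapped, since wild-type nerve 2 was below 2 Plekhg5-deficient nerves. Group means were 779 ± 165 and 647 ± 44.2 (SD, n = 3 each), and the log2 fold change was -0.25 (SE 0.26, 95% interval -0.86 to 0.36, unadjusted p of 0.364, adjusted p of 0.974, limma). The fold change was -0.10 without wild-type nerve 5, -0.39 without wild-type nerve 2 and -0.42 on FPKM as deposited. Serping1 lies on chromosome 2 from 84765387 to 84775444. In all 6 libraries the transcript of the inhibitor exceeded that of C1ra by far, and it exceeded C3 as well.

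C3ar1, the receptor through which C3a acts on myeloid cells, had 3.0, 5.09 and 4.93 scaled FPKM in wild-type animals 2, 4 and 5, compared with 4.89, 5.43 and 10.1 in Plekhg5-deficient animals 2, 3 and 5. Plekhg5-deficient nerve 5 reached 181% of the mean of all libraries, wild-type nerve 2 was the lowest, and the others lay near each other. The mean was 1.57-fold higher in Plekhg5-deficient (6.81 ± 2.86, SD, n = 3) than in wild-type animals (4.34 ± 1.16, SD, n = 3), a log2 fold change of 0.51 (SE 0.31, 95% interval -0.23 to 1.26) with an unadjusted p of 0.147 and an adjusted p of 0.974 (limma). The gene lies on chromosome 6 from 122847138 to 122856161. Without Plekhg5-deficient animal 5 the fold change was 0.23, and without wild-type animal 2 it was 0.32.

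The level of C3ar1 was also set against macrophage markers of the same library, a comparison chosen after the values had been seen. The ratio of C3ar1 to Csf1r, the receptor that macrophages need to survive, was 0.323, 0.420 and 0.194 in wild-type animals 2, 4 and 5, compared with 0.505, 0.604 and 0.468 in Plekhg5-deficient animals 2, 3 and 5. The genotypes did not overlap, with means of 0.312 ± 0.114 and 0.526 ± 0.0705 (SD, n = 3 each) and an exact permutation p of 0.1, the smallest possible. C3ar1 was the 1 member of 9 with a higher ratio to Csf1r without overlap, as had 2.74% of all genes tested. Against Cd68, a lysosomal protein of macrophages, the ratio overlapped, at 0.0783 to 0.129 in wild-type and 0.101 to 0.187 in Plekhg5-deficient nerves. The separation thus rested on which macrophage marker was used. Of 11 macrophage markers, 7 had a log2 fold change above 0 and 4 below, with a median of 0.14. Cd68 (0.24) was among those above, while Csf1r (-0.19) was among the 4 below. The higher ratio of C3ar1 was therefore seen against a marker that goes against most of its list, and the part of macrophage content was not tested. The summed level of 11 macrophage markers was 194, 268 and 431 scaled FPKM in wild-type animals 2, 4 and 5, compared with 246, 223 and 516 in Plekhg5-deficient animals 2, 3 and 5.

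**Figure D3:**
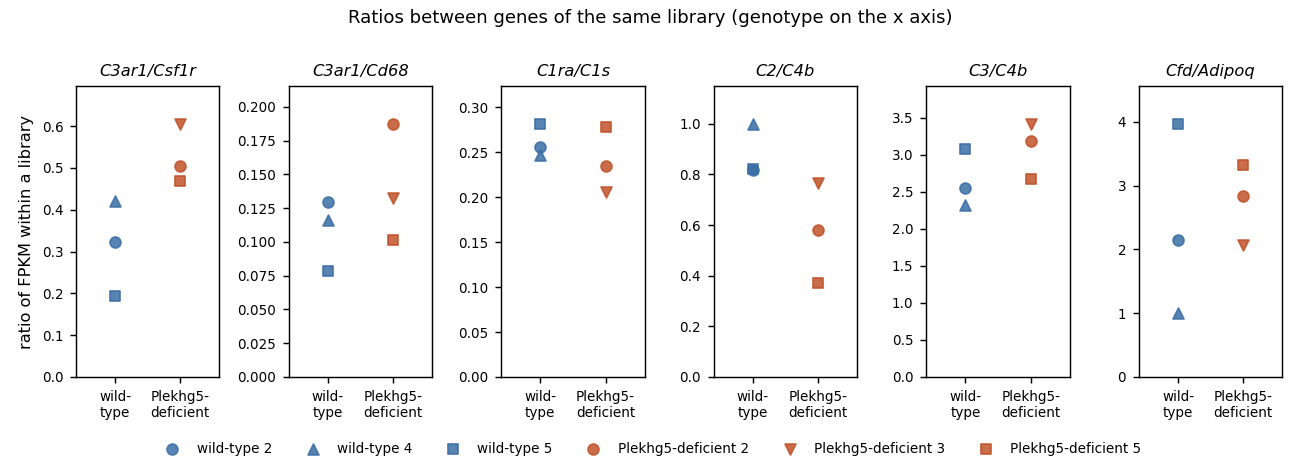
Ratios of FPKM between pairs of genes within each library, by genotype, with the marker shape giving the animal's number. The ratio of C3ar1 to Csf1r was higher and that of C2 to C4b lower in Plekhg5-deficient nerves without overlap, while the other 4 ratios overlapped.

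The panels of within-library ratios, pairs chosen after the values had been seen, need no scaling between libraries. For the members made by fibroblast-like cells in many tissues, the ratio to the fibroblast receptor Pdgfra was lower without overlap in Plekhg5-deficient nerves for 3 of 9 members, C2, C1ra and Serping1, where 6.31% of all genes tested were. For C1ra it was 1.53, 1.38 and 1.74 in wild-type libraries and 0.826, 1.02 and 1.069 in Plekhg5-deficient libraries. Against Col1a1, the chain of type I collagen and the other defining fibroblast marker, 0 of 9 members were lower without overlap, where 1.12% of all genes were. The ratio of C1ra to Col1a1 was 0.214, 0.136 and 0.269 in wild-type libraries and 0.199, 0.138 and 0.300 in Plekhg5-deficient libraries. The 2 denominators are not alike. Of 12 fibroblast markers, 10 had a log2 fold change below 0, with a median of -0.44, and Col1a1 (-0.57) was among them, while Pdgfra (0.11) was 1 of the 2 above 0. Against Col1a1, C3ar1 was higher without overlap, as were 19.1% of all genes tested. The lower ratios of C2, C1ra and Serping1 were therefore seen against a marker that goes against most of its list, and the part of fibroblast content was not tested. The summed level of 12 fibroblast markers was 3083 to 4555 scaled FPKM in wild-type and 2748 to 3274 in Plekhg5-deficient nerves.

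**Figure D4:**
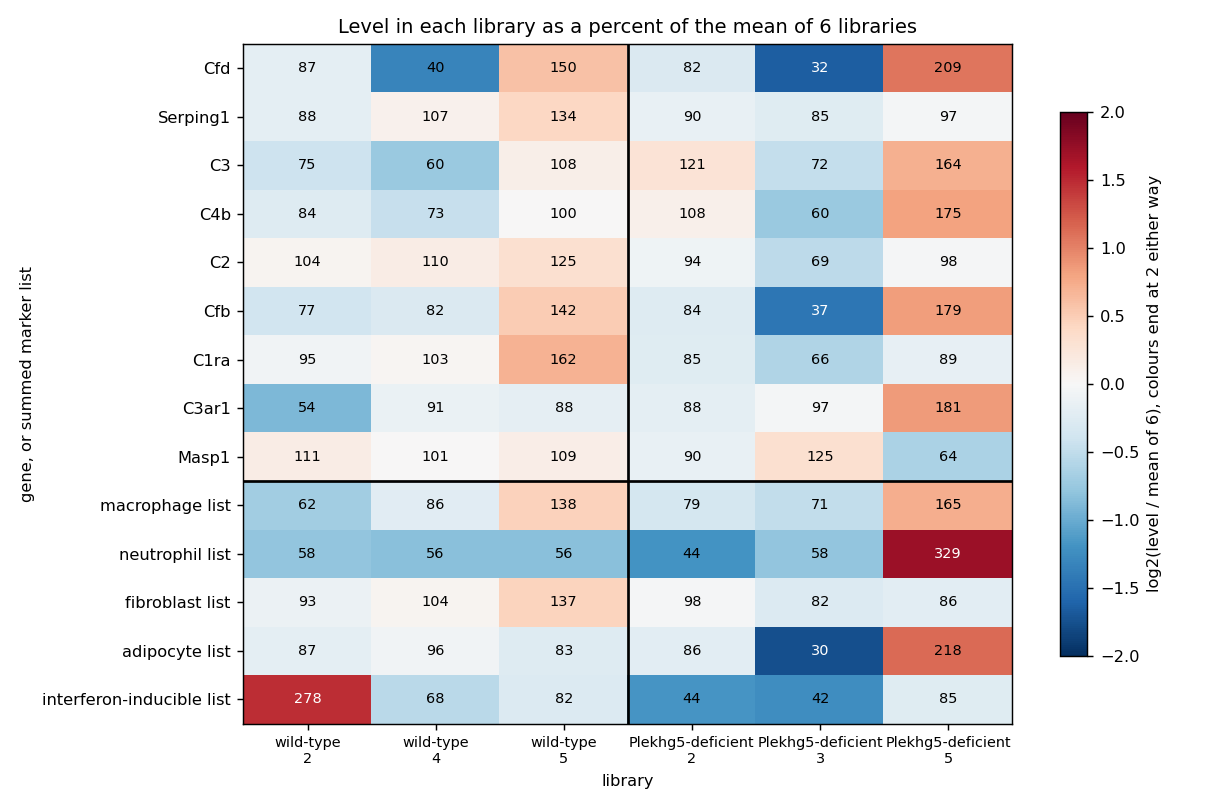
Level of each complement gene, and summed level of 5 lists of marker genes, in each library as a percent of the mean of the 6 libraries, coloured by its log2. On scaled FPKM, Plekhg5-deficient nerve 5 was highest for 5 of 9 complement genes and Plekhg5-deficient nerve 3 lowest for 6 of 9. These counts depend on the scaling.

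The grid of levels relative to the mean shows which libraries were high and low for each member. Plekhg5-deficient nerve 5 was highest for C3, C4b, Cfb, Cfd and C3ar1, and wild-type nerve 5 for C2, C1ra and Serping1. These places depend on the scaling factor, which was 0.745 for Plekhg5-deficient nerve 5. On FPKM as deposited, C3 was highest in Plekhg5-deficient nerve 2 (256, against 238 in nerve 5). Cfb was then highest in wild-type nerve 5 (30.0, against 28.3), and C1ra and Serping1 were lowest in Plekhg5-deficient nerve 5. How many of all genes had their extremes in these nerves was not counted. Wild-type nerve 5 was also the highest for T-cell, B-cell and lymph node stroma transcripts, whose part in these levels was not tested. Plekhg5-deficient nerve 3 was lowest for 6 of 9 genes and reached 32.01% of the mean for Cfd and 36.8% for Cfb, but 97.4% for C3ar1. Markers of neutrophils moved with Plekhg5-deficient nerve 5 (482 summed scaled FPKM of 8 genes, against 64.0 to 84.8 in the others, with 8 of 8 genes highest there). Skeletal muscle markers did so too, with 41629 summed scaled FPKM of 10 genes in Plekhg5-deficient nerve 5, 231 in Plekhg5-deficient nerve 3 and 2143 to 15548 in the others, and 10 of 10 were highest in nerve 5 and 9 of 10 lowest in nerve 3. The part of either in the complement levels of these nerves was not tested. With both nerves numbered 5 left out, the log2 fold changes were 0.46 for C3, 0.02 for C4b, -0.41 for C2, -0.39 for C1ra and 0.31 for C3ar1, and the unadjusted p was 0.129 or more for each of these. Wild-type nerve 2 had the highest summed level of 18 interferon-inducible genes (566 scaled FPKM, against 86.2 to 172 in the others), and was highest for 0 of the 9 complement genes. Of these 18, 17 had a log2 fold change below 0 and 1 above, with a median of -1.02. At an unadjusted p under 0.05 (limma) 5 were lower, where 2.69% of all genes were. Without overlap 6 were lower, where 5.88% of all genes were. The part of these genes in the complement levels was not tested.

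For each member the gene with the most similar profile over the 6 libraries was sought among 9510 genes with a mean of at least 5 scaled FPKM, by Pearson correlation on the log2 scale. Every member had such genes at a high r over these 6 points, so a high r does not single out a gene, and the values are a description. C2 was nearest to the guidance cue Ntn1 (r = 0.994), Cfb to Hebp1 (r = 0.998) and Cfd to the mitochondrial protein Tspo (r = 0.995). C4b had the endothelial clotting protein Vwf as its second (r = 0.991), with 128 scaled FPKM of Vwf in Plekhg5-deficient nerve 5 against 22.6 in nerve 3. Serping1 was nearest to the transcription factor Tcf4 (r = 0.991), C3ar1 to Sumo2 (r = 0.979), Masp1 to the kinase Pip5k1c (r = 0.985) and C3 to the predicted gene Gm9294 (r = 0.996).

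The other complement genes were described from role lists of 49 symbols, of which 46 are in the tables and 39 were tested. At an unadjusted p under 0.05, 2 were lower and 2 higher, 0 passed at an adjusted p under 0.05, and 4 were lower and 2 higher without overlap. Beside these stand 2.69% and 2.41% of all genes at the unadjusted threshold, and 5.88% and 5.69% without overlap. Their median log2 fold change was -0.06, with 24 below 0 and 15 above. The C1q chains, which bind the target and start the classical pathway, overlapped between genotypes, with C1qb, the highest, at 62.1 to 131 scaled FPKM in wild-type and 58.2 to 135 in Plekhg5-deficient nerves. Both nerves numbered 5 were the highest for C1qb.

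Masp2, the lectin pathway protease that cuts C4 and C2, was higher in every Plekhg5-deficient nerve, with 1.63, 1.61 and 1.04 scaled FPKM in nerves 2, 3 and 5 against 0.331, 0.157 and 0.0901 in wild-type nerves 2, 4 and 5. The ratio of the group means was 7.40. On the scale with 1 added to each FPKM, which understates changes at such levels, its log2 fold change was 1.02 (SE 0.16, unadjusted p of 0.000557), and with 0.1 added it was 2.44, but the adjusted p of 0.334 at an added 1 in limma did not pass the threshold. Over 15 other settings its adjusted p was 0.0519 or more. Masp2 lies on chromosome 4 from 148602554 to 148615499, 3.46 Mb from Plekhg5, and overlaps Tardbp by 3118 bases. The sources used here do not give the strand setting, so reads of Masp2 and Tardbp may not have been told apart. Tardbp, an RNA-binding protein, had 14.9 to 21.3 scaled FPKM in wild-type and 20.0 to 26.1 in Plekhg5-deficient nerves. In Plekhg5-deficient nerves Masp1, its partner protease, was at 0.763 ± 0.248 scaled FPKM beside 1.43 ± 0.334 for Masp2, and in wild-type nerves at 0.875 ± 0.0456 beside 0.193 ± 0.124 (SD, n = 3 each).

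Among membrane regulators, which shield host cells, the C3b-binding cofactor Cd46 had 1.02, 0.984 and 1.42 scaled FPKM in wild-type animals 2, 4 and 5, compared with 2.36, 2.26 and 2.21 in Plekhg5-deficient animals 2, 3 and 5. These did not overlap, with a log2 fold change of 0.62, an unadjusted p of 0.00865 and an adjusted p of 0.739 (limma). The most abundant regulators of this group, Cd59a, which blocks the membrane attack complex, Cd55, which speeds the decay of the C3-splitting enzymes, and Cr1l, at means of 90.7, 58.1 and 21.0 scaled FPKM, had log2 fold changes of 0.22, 0.07 and 0.04 and overlapped. Of the late components, Hc, which codes for C5, had 0.464, 0.657 and 0.280 scaled FPKM in wild-type libraries and 0.263, 0.0477 and 0.0134 in Plekhg5-deficient libraries (log2 fold change -0.40, unadjusted p of 0.0303, adjusted p of 0.949, limma). C5ar2, a second receptor of its C5a fragment, had 0.220 to 0.307 scaled FPKM in wild-type and 0 to 0.0848 in Plekhg5-deficient nerves (log2 fold change -0.28, unadjusted p of 0.0195, adjusted p of 0.894, limma). Both genes were below 1 FPKM in every library, where the added 1 on the log scale understates a change.

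The remaining highest genes of the role lists did not pass the test. The ficolin Fcna, a recognition lectin, had a log2 fold change of -0.54 and was highest in both nerves numbered 5, at 6.63 and 6.72 scaled FPKM. Among the late genes, C4a had a log2 fold change of 0.43, C7 of the membrane attack complex -0.33 and properdin, coded by Cfp, -0.32. Properdin was highest in both nerves numbered 5, at 30.9 scaled FPKM in wild-type and 24.8 in Plekhg5-deficient nerves. C6, lower in mean level than these, had a log2 fold change of -1.01 (unadjusted p of 0.0517, adjusted p of 0.972, limma). It overlapped, at 0.516 to 3.20 scaled FPKM in wild-type and 0.211 to 0.986 in Plekhg5-deficient nerves. Of the fluid-phase regulators, clusterin (Clu) and vitronectin (Vtn) had mean levels of 124 and 47.4 scaled FPKM and log2 fold changes of -0.19 and -0.24. Vtn did not overlap, at 49.9, 51.4 and 53.3 in wild-type libraries and 44.6, 43.8 and 41.7 in Plekhg5-deficient libraries, with an unadjusted p of 0.133 and an adjusted p of 0.974 (limma). Of the receptors, Itgb2, Cd93 and the C5a receptor C5ar1 were highest, with log2 fold changes of 0.21, -0.02 and -0.43, and overlapped. Mbl1, a mannose-binding lectin, was listed at 0 in all 6 libraries, and C9, the pore-forming last component, above 0 in wild-type nerve 2 alone, at 0.243. C9 and Hc are made mainly in liver, and 9 of 10 liver transcripts were highest in that nerve, with albumin (Alb) at 37.6 scaled FPKM against 1.35 to 4.86 in the others. All 10 had a log2 fold change below 0, 4 of them without overlap, where 5.88% of all genes tested were lower in that way. Their part in the levels of C9 and Hc was not tested.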

How the data were processed

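The authors extracted RNA from whole sciatic nerves, made poly(A) libraries with a Lexogen SENSE kit, trimmed reads with Trim Galore 0.4.0, removed the first 9 bases of 75-cycle reads, mapped them with STAR, and deposited 1 table of FPKM per library from Cufflinks 2.2.1 on GRCm38. FPKM were not scaled between libraries per any source, and the sources used here give no annotation release, strand setting or depth. Rows sharing an identifier (22) were summed.

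Each deposited FPKM was divided by its library's median-of-ratios factor (0.745 to 1.12). The 21285 genes whose mean reached 0.1 FPKM in wild-type or Plekhg5-deficient libraries were fitted as log2(scaled FPKM + 1) with limma 3.58.1 in R 4.3.3, genotype alone, variance trend, Benjamini-Hochberg adjustment. All 9 members passed the filter. The fit was tested on simulated data. Low FPKM changes are understated by the pseudocount. No 2 libraries were duplicates (correlations 0.904 to 0.981). Shared 66-base windows were counted in GENCODE transcripts of the same build, in place of the unstated annotation.

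The members and lists were chosen with earlier results of these data known. Named genes were the members, Plekhg5, the 3 highest of each complement role list with every gene of it at an unadjusted p under 0.05, the 2 highest and the defining genes of each marker list, and the 2 genes most like each member. A few genes under this rule are not reported here. Tardbp, Gm20547, C9, Mbl1, C6 and Susd4 were added after their values were seen. Alternatives were a pseudocount of 0.1, no filter or one at 1 FPKM, unscaled FPKM, upper quartile factors, no trend, array weights, a replicate block and leaving out each library. Leaving out both libraries numbered 5 and the within-library ratios were chosen after seeing the data. Figures used matplotlib 3.10.9. The comparison results in the supplement of the study were not used.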

Additional observations from a re-analysis of the deposited data

How the results depend on the processing

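In all 134 alternatives of the fold changes of the 9 members, 0 passed an adjusted p under 0.05 (limma). Plekhg5 itself had an adjusted p of 0.038 in the main fit (limma). In the alternatives below that called 0 genes lower, Plekhg5 did not pass either. The 0 for the members therefore does not show that they were unchanged. In 126 the direction was kept, and C2, C3, C1ra, Serping1, Masp1 and C3ar1 kept it in all of theirs. It reversed for C4b without Plekhg5-deficient nerve 5 (-0.086), for Cfb without wild-type nerve 5 (0.05), without Plekhg5-deficient nerve 3 (0.33) and under the replicate block (0.22), and for Cfd on FPKM as deposited (-0.15), without wild-type nerve 4 (-0.48), without Plekhg5-deficient nerve 5 (-0.66) and without both nerves numbered 5 (-0.22). Without 1 library C4b ran from -0.086 to 0.68, Cfb from -0.75 to 0.33 and Cfd from -0.66 to 0.70. The cause was not tested. At an unadjusted p under 0.05, FPKM as deposited gave 2 lower members (C1ra and C2), where 3.54% of all genes were lower, array weights 1 higher (C3), where 5.99% were higher, and leaving out 1 library 0 lower and 0 to 1 higher (C3 without Plekhg5-deficient nerve 3, where 2.39% were higher). Of the other complement genes, 0 were lower with a minimum of 1 FPKM (where fewer genes were tested), without the trend and under the block. With array weights 5 of them were lower, where 5.52% of all genes were. Without both nerves numbered 5, 4 of them were lower, and without 1 library 0 to 4. Under the block 1 of them was higher, and without 1 library 2 to 3. For settings without a share of all genes beside them, the counts are a description alone.

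Over all genes, 2 were called lower and 6 higher. Lower and higher calls were 1 and 6 with a pseudocount of 0.1 and with a minimum of 1 FPKM, and 0 and 2 without a filter. They were 8 and 14 with array weights and 0 and 0 under the replicate block. Without both nerves numbered 5 they were 0 and 9, and without 1 library 0 lower and 0 to 5 higher. The block rests on numbers 2 and 5 alone. Deviations of same-numbered nerves correlated at 0.07 for 2 and 0.58 for 5. The labels do not say that a number marks a litter or a day, so what same-numbered nerves share beyond the number is not known. Masp1 could not be fitted with a minimum of 1 FPKM, below which it lies in both genotypes. With 3 against 3 libraries of unknown depth, the 95% interval of Cfd reached from -1.82 to 1.87, so differences within it were not excluded.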
